A study of Mus musculus with 10 samples.

Results

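The regions described here are the stretches of chromatin whose read counts differed most steeply upward in atrial cardiomyocytes of Tbx5G125R mice. They were chosen by 1 rule. The geometric mean count of the 4 Tbx5G125R libraries, divided by that of the 6 Control libraries, had to be 3 or more, with a count of 0 kept as 0.1. Of the 10010 regions in the deposited table, 945 met it (9.44%), and they are called strongly opened regions below. The table held 8846 regions with a higher geometric mean in Tbx5G125R, called gained, so that the strongly opened regions were 10.7% of these, and 1164 regions with a lower one, called lost. Because the counts of these same libraries chose the regions, their counts are a description and carry no test.

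Accessibility was measured by ATAC-seq, in which a transposase inserts sequencing adapters into open DNA, in nuclei of adult mice aged 8 to 12 weeks. The Tbx5G125R group carried the G125R substitution in 1 copy of Tbx5, and the Control group did not (4 animals each). Nuclei of the left and right atrium of each animal were combined and sorted for PCM1, a centrosomal protein that marks cardiomyocyte nuclei, and 2 of the Control animals (1 and 3) had 2 libraries each, which were summed. The table lists only regions that the authors had called different, and it therefore holds no unchanged region to set beside these.

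Tbx5 is a T-box transcription factor that binds DNA at promoters and enhancers and works with other cardiac factors to keep the gene program of atrial muscle. Mutations in it cause Holt-Oram syndrome, in which heart and limb malformation and atrial arrhythmia occur. Regions that a transposase can cut are those where nucleosomes have moved aside. Most are promoters or distal elements, and distal elements differ more between cell types and states than promoters do. In these bulk libraries, a wider opening in every nucleus and an opening in more of the nuclei cannot be told apart.

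Only a small part of the strongly opened regions lay at starts of genes, where the sequence could be read. Of the 945 regions, 33 (3.49%) overlapped one of the start windows of RefSeq genes, which run from 250 bases before a start to 50 after it (RefSeq sequences of build GRCm38.p6), against 34.6% of the other gained regions and 1.46% of the lost regions. These 33 regions covered 37 windows. The 5 windows printed here stand for the guidance gene, the secreted lectin, the scaffold gene and the T-box match that recur in the results. Each runs 5′ to 3′ on the strand of its gene, and capitals mark a match, on either strand, to the T-box core AGGTGT, the E-box CAGCTG, the GATA letters AGATAA, the NKX2-5 letters TNAAGTG or the MEF2 site.
Lgals3 (chr14:47373610-47373909, plus strand): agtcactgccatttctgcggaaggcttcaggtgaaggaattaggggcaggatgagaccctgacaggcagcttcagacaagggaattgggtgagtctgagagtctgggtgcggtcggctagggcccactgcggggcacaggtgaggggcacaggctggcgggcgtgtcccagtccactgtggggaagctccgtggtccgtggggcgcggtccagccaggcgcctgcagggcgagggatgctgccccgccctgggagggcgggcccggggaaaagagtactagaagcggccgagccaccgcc
Cd82 (chr2:93452623-93452922, minus strand): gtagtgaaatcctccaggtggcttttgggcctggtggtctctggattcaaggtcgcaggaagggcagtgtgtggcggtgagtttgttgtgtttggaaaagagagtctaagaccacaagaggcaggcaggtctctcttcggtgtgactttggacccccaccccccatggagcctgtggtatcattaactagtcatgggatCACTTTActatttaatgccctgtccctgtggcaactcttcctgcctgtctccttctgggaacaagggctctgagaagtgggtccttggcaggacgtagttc
Sema6c (chr3:95164089-95164388, plus strand): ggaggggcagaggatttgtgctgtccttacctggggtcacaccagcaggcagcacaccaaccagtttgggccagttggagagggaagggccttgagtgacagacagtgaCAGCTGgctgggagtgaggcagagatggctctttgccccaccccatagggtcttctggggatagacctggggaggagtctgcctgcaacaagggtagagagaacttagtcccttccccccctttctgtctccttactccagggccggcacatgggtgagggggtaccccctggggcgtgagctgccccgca
Gid4 (chr11:60416895-60417194, plus strand): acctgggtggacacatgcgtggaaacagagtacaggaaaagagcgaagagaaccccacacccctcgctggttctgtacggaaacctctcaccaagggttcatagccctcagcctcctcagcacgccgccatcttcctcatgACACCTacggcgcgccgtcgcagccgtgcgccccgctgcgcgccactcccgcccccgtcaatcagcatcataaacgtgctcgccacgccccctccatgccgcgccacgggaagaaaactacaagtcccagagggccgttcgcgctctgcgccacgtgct
Iqgap2 (chr13:95891873-95892172, minus strand): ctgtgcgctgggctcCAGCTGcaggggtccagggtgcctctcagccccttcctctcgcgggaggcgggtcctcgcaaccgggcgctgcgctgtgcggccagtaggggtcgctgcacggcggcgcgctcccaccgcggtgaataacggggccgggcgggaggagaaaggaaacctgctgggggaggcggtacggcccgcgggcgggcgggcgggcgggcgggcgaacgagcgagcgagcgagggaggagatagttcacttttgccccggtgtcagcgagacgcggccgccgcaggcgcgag

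In these windows the T-box match at Gid4 lay in the shared start region of Gid4 and Atpaf2, which face away from each other, so that both their windows hold it. The Lgals3 window held none of the marked letters. It held the GC box GGGCGG, which SP and KLF factors bind, at 2 places. The T-box core was found in 6 of the 37 windows (16.2%), at 5 regions, against 13.7% of all 32851 start windows. The longer T-box form AGGTGTNA, which contains the core, was found in 3 (8.11%), against 3.03% of all windows, but these held 2 distinct sites, since Gid4 and Atpaf2 share one. CAGCTG was found in 8 (21.6%), against 16.3%, and TNAAGTG in 4 windows (10.8%) at 3 sites, against 11.5%. No window held AGATAA or the MEF2 site, which 11.2% and 3.19% of all start windows held. GGGCGG was found in 16 windows (43.2%), against 77.5% of the windows at other gained regions and 35.7% of all. The median GC content was 55.0% in the windows of strongly opened regions, 65.0% in those of other gained regions and 52.7% in all. With 37 windows these shares describe the letters only.

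The size of the ratio and the depth behind it differed widely among the 945 regions. The ratio ran from 3.001 to 29.3 with a median of 3.66. It was under 4 in 601 regions, 4 to 5 in 179, 5 to 6 in 56, 6 to 8 in 55, 8 to 10 in 24 and 10 or more in 30. Over all listed regions the median ratio was 2.02, so the threshold of 3 lay 1.48 times above the middle of the table. The geometric mean count of a strongly opened region had a median of 64.6 in Tbx5G125R (26.1 to 578) and of 16.5 in Control (1.57 to 179), whereas other gained regions had medians of 217 in Tbx5G125R and 109 in Control. The strongly opened regions were therefore mostly regions of few reads in Control, with 155 of them under 10 and 17 under 5. They were wider than the other gained regions, with a median width of 1000 bp against 750 bp.

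**Figure D1:**
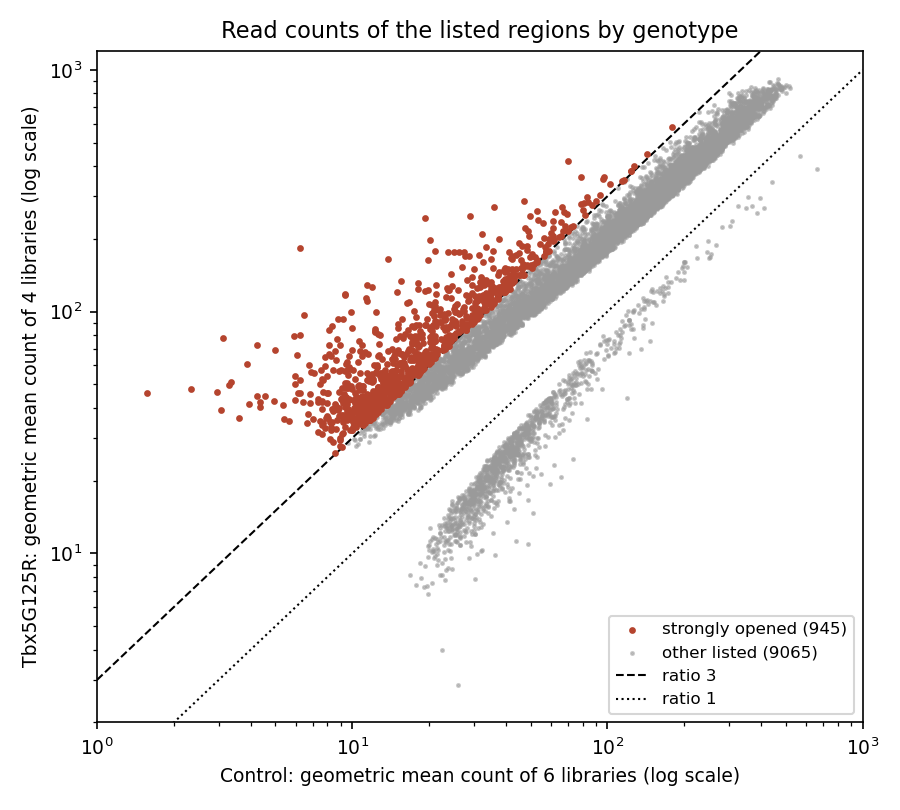
Each point is a listed region, with the geometric mean count of the 6 Control libraries on the x axis and of the 4 Tbx5G125R libraries on the y axis (both log scales). The 945 strongly opened regions (red) lie on or above the dashed line of ratio 3, mostly at low Control counts, and the other regions (grey) lie below it. The dotted line marks a ratio of 1.

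The 8 animals kept to their groups over the strongly opened regions. Counts were scaled within each genotype only, so that the scale between genotypes is that of the raw counts, as in the rule. The median scaled count over the 945 regions was 62.2, 69.7, 67.2 and 70.9 in Tbx5G125R animals 1 to 4, and 17.4, 16.5, 18.5 and 18.0 in Control animals 1 to 4. Their share of the reads in the table was 3.45% to 3.98% in Tbx5G125R animals and 1.84% to 2.09% in Control animals. This share does not depend on the scale between genotypes, but the rule itself makes it higher in Tbx5G125R. The lowest Tbx5G125R animal was above the highest Control animal at 935 of the 945 regions (98.9%), where 99.3% of the other gained regions and 87.7% of all listed regions had the same separation. At 542 regions (57.4%) it was at least 2 times as high. That count was taken for the strongly opened regions only, and the rule itself favours it, so nothing is read from it. At the 10 regions without separation, which included regions at Stard3nl, Flrt1, Lingo2, Chrna1, Zfp532 and Magi2, the animals of the groups overlapped.

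All 945 regions were called higher in Tbx5G125R by edgeR's quasi-likelihood test of 4 against 4 animals, in a table where 88.4% of regions were called higher. The rule used this contrast, and nothing is read from that count. When size factors were taken from the table itself, which sets its middle region near 0, 653 of the 945 (69.1%) were called, and 8.55% of all regions. The table as a whole then had 856 regions called higher and 1227 lower, in place of 8846 and 1052. The median log2 fold change of the strongly opened regions was 1.82 on the raw scale, where all listed regions had 1.01, and 0.84 on the table's own scale, where all listed regions had 0.03.

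Some libraries stood apart within their group. Control animal 2 had the fewest reads in the table, 630392, where the other animals had 1134355 to 2776475. Of the 23 strongly opened regions with a Control library at 0, 21 were at 0 in that animal. It was the lowest Control animal at 38.9% of the strongly opened regions, and at 28.5% of the other gained regions. Tbx5G125R animal 1 was the lowest of its group at 452 of the 945 (47.8%), and at 28.5% of the other gained regions. The median coefficient of variation between animals was 20.9% in Tbx5G125R and 29.2% in Control. For the strongly opened regions with a Tbx5G125R level of 40 to 120 it was 21.1% in Tbx5G125R and 31.3% in Control, and for other gained regions of the same Tbx5G125R level, whose Control counts were higher, 17.2% in Tbx5G125R and 20.2% in Control.

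The highest ratios rested on very few Control reads. The highest of all, 29.3, belonged to a region of chromosome 16 with no protein-coding gene within 100 kb (chr16:54370001-54370500, build mm10), where Tbx5G125R animals had 21.6, 54.8, 61.7 and 61.6 scaled counts and Control animals 1.37, 0, 6.03 and 8.99. Next came a region inside Sctr, the secretin receptor gene (chr1:120054751-120056750), with 166, 194, 176 and 196 in Tbx5G125R animals and 16.0, 0, 9.24 and 16.98 in Control animals. Both separated the groups in every animal, but the size of the ratio turned on single Control animals. With the other libraries kept on the scale within their genotype, the ratio without Control animal 2 was 19.1 on chromosome 16 and 14.5 at Sctr, in place of 29.3 and 29.3, and without Control animal 3 it was 57.3 on chromosome 16. A region 1464 bp from Atad1, which encodes an ATPase of the mitochondrial outer membrane, had a ratio of 24.98, and of 14.2 without Control animal 2. Of the 30 regions with a ratio of 10 or more, 13 had Control animal 2 at 0, and 17 of the 30 stayed at 10 or more without it (12 when the raw counts were left unscaled). Leaving out 1 animal moved the ratio by over 1.5 times at 28 of the 945 regions, most often when that animal was Control animal 2 (20 regions). The 30 regions with a ratio of 10 or more had a median geometric mean of 79.7 in Tbx5G125R and 6.15 in Control.

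Of the 473 regions whose Control level was at or above the median of the strongly opened regions, 471 had groups that did not overlap. The same held, at any level, for 99.3% of the other gained regions and 87.7% of all listed regions. The highest ratio among the 473, 12.7, was at a region of chromosome 18 with no gene within 100 kb. It had 173, 256, 282 and 284 scaled counts in Tbx5G125R animals and 16.5, 25.6, 18.1 and 23.0 in Control animals. A region 5857 bp from Diaph3, a formin that builds actin filaments, followed with 239, 177, 169.7 and 210.0 in Tbx5G125R animals and 25.2, 23.8, 15.7 and 21.0 in Control animals (ratio 9.74). In neither did any animal of 1 group come near the other group. Phactr1, which encodes a regulator of actin and protein phosphatase 1, had a region inside the gene at chr13:43115501-43117250. It had 224, 246, 275 and 248 in Tbx5G125R animals and 30.6, 29.3, 26.5 and 29.96 in Control animals (ratio 8.59). Regions inside Thsd7a, a membrane protein with thrombospondin domains, inside Grik3, a glutamate receptor subunit, and inside Gabbr2, a GABA-B receptor subunit, had ratios of 7.54, 7.27 and 6.85. Those near the olfactory receptor gene Olfr987 and inside the cytochrome P450 gene Cyp4f17 had 8.45 and 8.32.

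**Figure D2:**
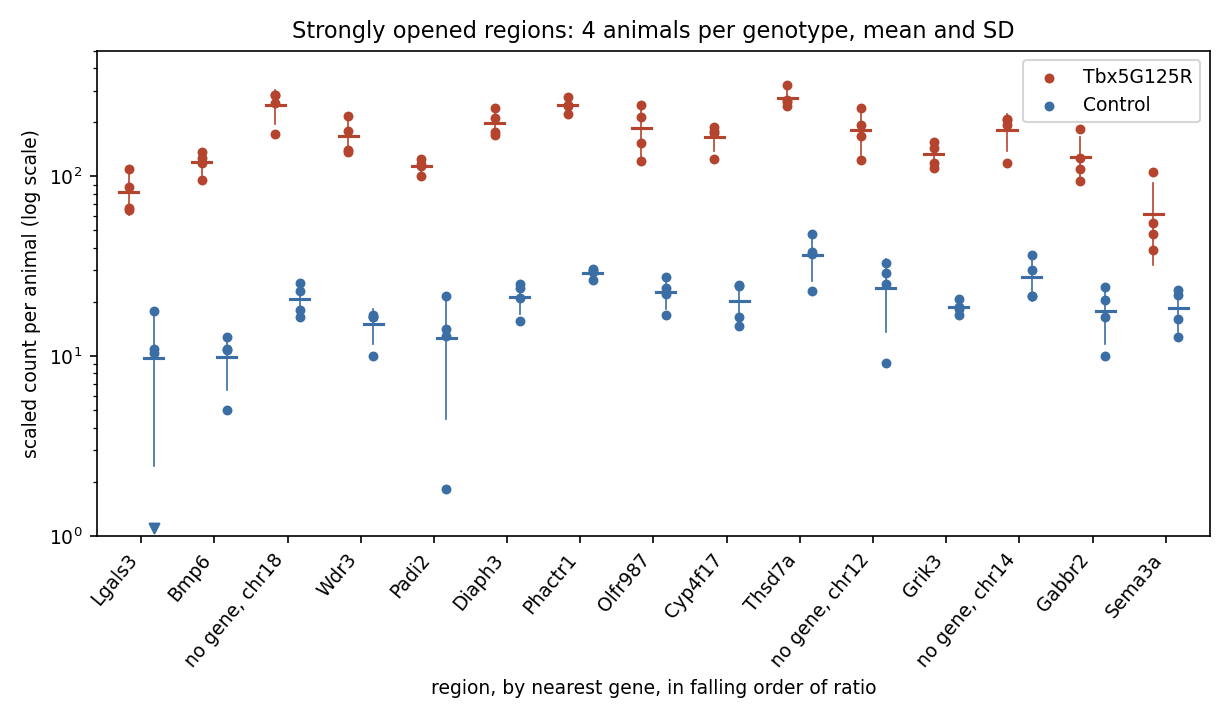
Scaled counts per animal (log scale) at the 10 regions of highest ratio among those at or above the median Control level, and at the strongest region of 5 genes that the study discusses. Points are animals (4 Tbx5G125R in red, 4 Control in blue), long bars the mean and thin lines the SD. No Tbx5G125R animal falls among the Control animals at any of the 15 regions. The triangle at Lgals3 marks Control animal 2, whose count of 0 has no place on a log axis.

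A few strongly opened regions had many reads in both genotypes. The highest level lay 99118 bp from Vwc2, a secreted inhibitor of bone morphogenetic proteins, with 409, 581, 621 and 758 scaled counts in Tbx5G125R animals and 150.0, 183, 209 and 183 in Control animals (ratio 3.23). Inside Cilp2, a cartilage matrix gene, the 4 Tbx5G125R animals ran from 409 to 494 and the 4 Control animals from 136 to 152 (ratio 3.12). Near Psd2, a regulator of ARF6 GTPase, Tbx5G125R animals ran from 331 to 506 and Control animals from 55.5 to 112 (ratio 6.02). In all, 51 of the strongly opened regions had a geometric mean of 200 or more in Tbx5G125R.

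At the threshold, regions on either side were much alike. The last ones inside were at Cnp, Neurl1a and Ccdc86, with ratios of 3.00072, 3.00235 and 3.00238, and the first ones outside were at Nenf and at 2 regions of chromosome 6 with no gene nearby, with 2.99849, 2.99827 and 2.99817. The region at Cnp had 100.4, 97.6, 123 and 99.9 scaled counts in Tbx5G125R animals and 30.2, 27.4, 39.4 and 49.9 in Control animals. That at Nenf had 47.0, 53.0, 49.0 and 67.2 in Tbx5G125R animals and 15.1, 11.0, 24.1 and 32.0 in Control animals.

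Strongly opened regions lay away from genes' ends more often than the other gained regions did. Within 1 kb of either end of a protein-coding gene were 62 (6.56%), against 41.1% of other gained and 5.41% of lost regions. Inside genes and over 1 kb from an end were 457 (48.4%), against 35.1% of other gained and 59.2% of lost regions. A further 256 (27.1%) were outside genes with one within 100 kb, and 170 (18.0%) had no gene within 100 kb, against 5.56% of other gained and 11.0% of lost regions. The share with no gene nearby was 16.97% at ratios of 3 to 4 and 23.3% at 10 or more (7 of 30). For the 272 regions outside a gene with one within reach, the median distance to it was 19987.5 bp.

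Regions with many reads lie at gene ends more often in this table, so the shares were also taken at like Control levels. At a Control geometric mean of 10 to 30, 5.02% of the 578 strongly opened regions and 7.70% of the 1091 regions with a ratio of 2 to 3 lay at gene ends, and 17.5% of the strongly opened regions and 11.8% of the others had no gene within 100 kb. At 30 to 60, 9.25% of 173 and 15.6% of 1189 lay at gene ends, and 18.5% of the strongly opened and 9.34% of the others had no gene nearby. At 60 to 200, 15.4% of 39 and 35.4% of 1608 lay at gene ends, and 20.5% of the strongly opened and 6.41% of the others had no gene nearby. The direction was the same in the 3 ranges of level, and the gap at gene ends was smallest where reads were fewest. Regions are not replicates, and no test was run over them.

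**Figure D3:**
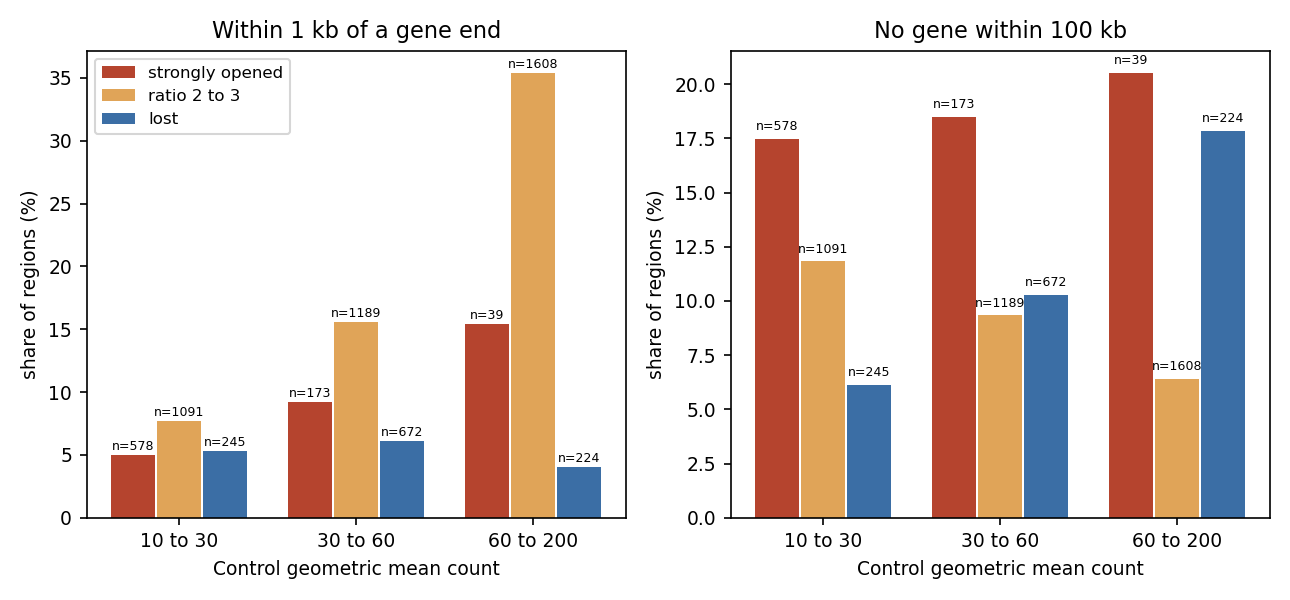
Share of regions within 1 kb of a gene end (left) and with no gene within 100 kb (right), by range of Control geometric mean count, for strongly opened regions (red), regions with a ratio of 2 to 3 (yellow) and lost regions (blue); n is the number of regions in each bar. At each level the red bar is lower than the yellow one at gene ends and higher where there is no gene nearby.

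The strongly opened regions were spread over the genome unevenly. They made up 13.4% of listed regions on chromosome 5 (95 of 708), 13.2% on chromosome 13, 12.5% on chromosome 3 and 12.4% on chromosome 2 (95 of 764), against 6.17% on chromosome 11 and 5.89% on chromosome 17. Between 160 and 170 Mb of chromosome 2 they were 21 of 87 listed regions (24.1%), and between 30 and 40 Mb of chromosome 15 they were 15 of 48 (31.3%).

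They also lay near each other. A listed region within 100 kb of a strongly opened one was itself strongly opened in 24.7% of cases, against 7.20% around other gained regions and 1.39% around lost regions. Of the 945, 306 (32.4%) had another strongly opened region within 100 kb, against 15.2% of the other gained regions. A lost region lay there for 4.23% of the 945, against 7.78% of other gained and 37.5% of lost regions. Chaining strongly opened regions that lay within 100 kb gave 761 loci, each running from its first strongly opened region to its last. Listed regions beyond these ends were not counted in a locus. Of the loci, 639 held 1 strongly opened region, 87 held 2, 19 held 3 and 16 held 4 or more. Those 16 loci held 75 strongly opened regions among 103 listed ones, with 0 lost.

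Iqgap2, which encodes a scaffold protein that binds actin, held the largest of the 19 loci of 3 or more regions in which every listed region was strongly opened. It had 7 of 7, with ratios of 3.13 to 4.67, from inside the gene to its start. The strongest had 159, 246, 232 and 267 scaled counts in Tbx5G125R animals and 37.5, 64.0, 51.8 and 56.9 in Control animals. The region at the start, whose window is printed above, had 105, 132, 152 and 118 in Tbx5G125R animals and 29.7, 21.96, 36.6 and 34.0 in Control animals. Tbx5G125R animal 1 was the lowest of its group at both. At Cdh22, a cadherin of cell adhesion, 7 of 11 were strongly opened, with ratios of 3.01 to 3.89, and the 4 others were gained as well, at 2.23 or more. A further one lay in the same locus inside Elmo2, a regulator of cell migration, with a ratio of 7.38.

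At Galnt9, an enzyme that starts O-linked sugar chains, 4 of 4 regions were strongly opened, and they differed among themselves more than those of Iqgap2 did. The region 5618 bp outside the gene had 111, 136, 117 and 106 scaled counts in Tbx5G125R animals and 10.5, 3.66, 12.5 and 12.0 in Control animals (ratio 12.4). Inside the gene the ratios were 10.3, 9.70 and 3.92. The last of these had Tbx5G125R counts of 61.0 to 95.7, much as the first of them had at 81.2 to 89.2, and Control counts of 14.6 to 24.1, against 3.66 to 11.0. Laptm4b, a lysosomal membrane protein, had 4 strongly opened regions of 6 listed, with ratios of 3.53 to 8.89, and Sema5a 4 of 5. Phactr1 had 5 of 14, spread over the gene, of which 3 lay in 1 stretch of 12000 bp that held no other listed region.

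**Figure D4:**
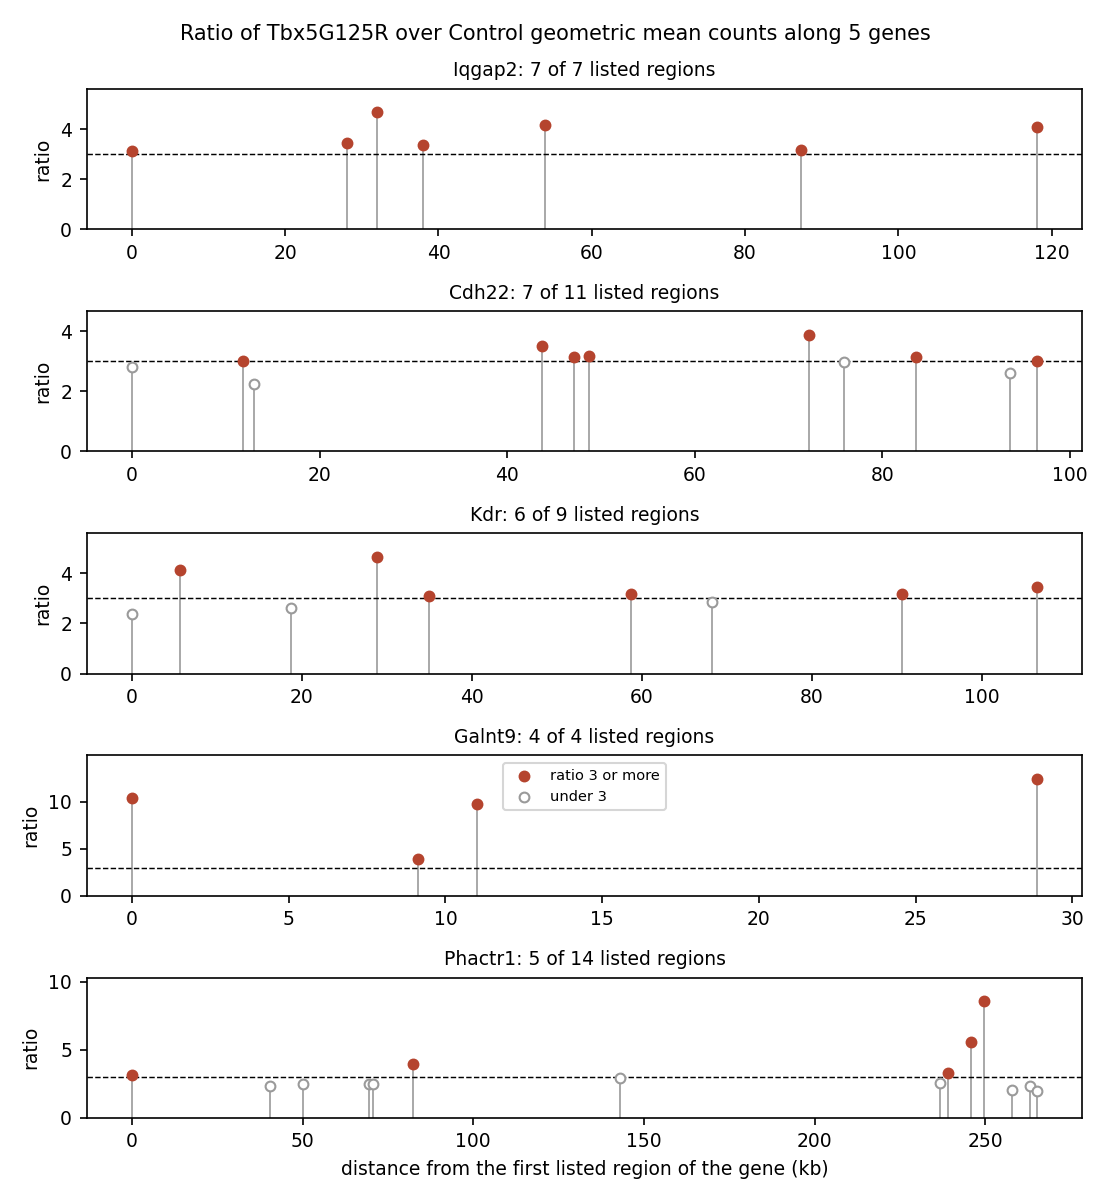
Ratio of Tbx5G125R over Control geometric mean counts (y axis) at each listed region of 5 genes, by distance in kb from the first listed region of the gene. Red points are strongly opened regions, open points the others, and the dashed line marks 3. At Iqgap2 and Galnt9 every listed region is red, and at Phactr1 the highest ratio, 8.59, stands beside the other red points of its stretch.

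In all, 631 genes had a strongly opened region assigned to them, out of 5698 with a listed region. Of these, 533 had 1, 71 had 2 and 27 had 3 or more, 39 also had a lost region, and 254 had no other listed region. The 27 included Rarb, a retinoic acid receptor (3 of 4 listed regions, ratios 6.71, 3.86 and 3.09), Hspg2, which encodes the basement membrane protein perlecan (3 of 11, up to 6.69), Sulf2, which trims heparan sulfate (4 of 9, up to 4.82), Slc7a1, a carrier of cationic amino acids (3 of 8, up to 6.19), Trib2, a pseudokinase (3 of 3, up to 4.99), Pthlh, the parathyroid hormone-like hormone (3 of 3, up to 10.6), and Nav2, a neuron navigator protein (3 of 14, up to 15.7). The regions of Trib2 and Pthlh all lay outside the gene, at 22725 to 32225 bp and at 12488 to 45738 bp. The highest ratios of Pthlh and Nav2 rested on a Control animal 2 at 0, and without it they were 5.71 and 8.53. Nav2 was the 1 gene of the 27 with a lost region too.

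Guidance and adhesion genes, whose proteins steer axons and migrating cells, had the highest share of strongly opened regions among the gene lists examined, cell type markers aside. They held 24 of the 84 listed regions (28.6%), at 14 genes, where 9.44% of all listed regions were strongly opened. Sema3a, Sema6c and Thsd7a had been put on the list with results of these data known; without them it was 19 of 76 (25%). The regions lay at ligands (Sema3a, Sema3e, Sema4d, Sema5a, Sema6a, Sema6c, Sema6d), at receptors (Nrp2, Plxna4, Robo1, Robo2, Ephb1) and at Cdh13 and Thsd7a. Of the 2 strongly opened regions at Cdh13, with ratios of 5.79 and 5.75, the second had 2.70 without Control animal 2. Genes of large span had more of them in general: of listed regions at genes over 200 kb long, 33.3% on the list (18 of 54) and 12.5% outside it were strongly opened. At genes of 50 to 200 kb the gap was smaller, with 13.04% on the list (3 of 23) and 8.52% outside it. At genes under 50 kb it was 42.9% on the list (3 of 7, all 3 at Sema6c) and 6.66% outside it. These shares by span keep Sema3a, Sema6c and Thsd7a on the list.

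Of the ligands, Sema6c had the highest level, at the region over its start whose window is printed above. Its 4 Tbx5G125R animals had 293, 401, 348 and 413 scaled counts and its 4 Control animals 83.7, 76.9, 74.8 and 81.9 (ratio 4.56). At Sema5a the strongest of the 4 regions had 39.4, 51.1, 36.3 and 55.1 in Tbx5G125R animals and 8.23, 0, 9.24 and 5.99 in Control animals (ratio 10.6, and 5.64 without Control animal 2), and the 3 others had ratios of 3.11 to 3.70. Control counts there were under 10 in every animal, and the ratio was correspondingly loose. The region inside Sema3a, a repellent of axons, had 105, 39.0, 55.4 and 47.6 in Tbx5G125R animals and 23.3, 12.8, 16.1 and 21.97 in Control animals (ratio 3.14), so that Tbx5G125R animal 1 stood well above the other animals of its group.

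Of the receptors, Nrp2, a co-receptor of semaphorins and VEGF, had a region 30059 bp away with 53.4, 119, 88.9 and 101 scaled counts in Tbx5G125R animals and 9.61, 9.15, 8.44 and 5.99 in Control animals (ratio 10.4). Robo2, a receptor of the SLIT ligands, had one 16226 bp away with 64.8, 81.8, 102 and 140.0 in Tbx5G125R animals and 10.5, 12.8, 10.9 and 4.00 in Control animals (ratio 10.1). In both, the lowest Tbx5G125R animal was over 5 times the highest Control animal. Plxna4, a plexin that pairs with neuropilins, had 2 of 10 listed regions, with ratios of 4.08 and 3.24. The list's other listed genes held none, among them Slit2, Slit3, Ntn1, Unc5b, Nrp1, Plxna2 and Epha4, whose highest ratios were 2.16 to 2.74. Of the 84 listed regions of the list, 10 were lost. They included 2 of the 3 at Robo1 and 2 of the 3 at Plxna2. Nrp1 and Epha4 each had 1 of 3 lost, and the 1 listed region of Slit1 was lost.

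A list of secreted factors that also held Padi2, an enzyme found inside cells, had 6 of 33 listed regions (18.2%), at Lgals3, Padi2 and Dkk3. Lgals3 and Padi2 are genes the study discusses and were put on it with results of these data known; without them it was 1 of 25 (4%). Lgals3, which encodes galectin-3, a lectin associated with fibrosis, had 2. The one over its start had 109, 87.4, 66.3 and 65.3 scaled counts in Tbx5G125R animals and 17.8, 0, 10.4 and 11.0 in Control animals (ratio 12.8, and 6.32 without Control animal 2). The other, inside the gene, had 225, 209, 173 and 192 in Tbx5G125R animals and 50.3, 25.6, 35.4 and 36.0 in Control animals (ratio 5.28). Tbx5G125R animal 1 was the highest at both. Padi2, which converts arginines of proteins to citrulline, had 3 of 6 listed regions. Its strongest had 100.4, 117, 125.2 and 114 in Tbx5G125R animals and 14.2, 1.83, 21.7 and 12.98 in Control animals (ratio 10.05, and 6.98 without Control animal 2), and those of 3.72 and 3.49 lay close together further along the gene. Natriuretic peptide gene Nppa had none of its 2.

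In the BMP and TGF-beta list, which runs from ligands to SMADs and inhibitors, 4 of 40 listed regions (10%) were strongly opened, a share near that of the table. The ligand gene Bmp6 had 2. The one inside the gene (chr13:38499251-38500250) had 119, 95.7, 127 and 136 scaled counts in Tbx5G125R animals and 12.8, 11.0, 10.9 and 4.99 in Control animals (ratio 12.7), and the one 20466 bp away had 160.1, 141, 94.4 and 142 in Tbx5G125R animals and 44.8, 47.6, 39.8 and 39.95 in Control animals (ratio 3.11). The first was low in Control and the second was not. Bmp3, a ligand that opposes other BMPs, had one with 215 to 269.7 in Tbx5G125R animals and 38.0 to 63.1 in Control animals (ratio 4.47). Smad1, which carries the BMP signal to the nucleus, had one 93573 bp away (ratio 3.05). Wdr3, a protein of ribosome assembly, is on no list. Its region had 139.7, 179, 216 and 136 in Tbx5G125R animals and 16.5, 16.5, 10.05 and 16.98 in Control animals (ratio 12.0).

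Lists of contraction and conduction genes held few strongly opened regions, and part of their listed regions were lost. Calcium handling genes had 2 of 119 listed regions (1.68%). A further 74 of the 119 were lost, and among the 45 gained ones the share was 4.44%, against 10.7% of all gained regions. They lay near Itpr2, an IP3 receptor, and inside Cacna1c, the L-type channel pore, with 142, 134, 102 and 106 scaled counts in Tbx5G125R animals and 36.1, 40.3, 31.3 and 50.9 in Control animals (ratio 3.26). The 13 other listed regions of Cacna1c were lost. Sarcomere and actin genes had 7 of 132 (5.30%), of which 5 were at Phactr1 and 1 each at Fhl2 and Xirp2. Potassium channel genes had 2 of 45 (4.44%), at Kcnc1 and Kcnf1, and sodium and pacemaker channel genes 1 of 26 (3.85%), at Scn3a, a sodium channel best known from neurons. Cardiac transcription factors had 1 of 78 (1.28%), inside Zfhx3, a gene linked to atrial fibrillation, with 61.0, 86.4, 55.4 and 79.3 in Tbx5G125R animals and 8.69, 7.32, 11.3 and 14.98 in Control animals (ratio 6.95). Gap junction and disc genes had 2 of 27 (7.41%), at Ctnna3 and Tjp1, fatty acid and mitochondrial genes 1 of 48 (2.08%), at Ppargc1a, and housekeeping genes 0 of 16. Among gained regions only, the share of gap junction and disc genes was 10%, near the 10.7% of all gained regions. It was 6.67% for sarcomere and actin genes, 5.88% for sodium and pacemaker channels and 4.76% for potassium channels. For fatty acid and mitochondrial genes it was 2.38%, and for cardiac transcription factors 1.49%.

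**Figure D5:**
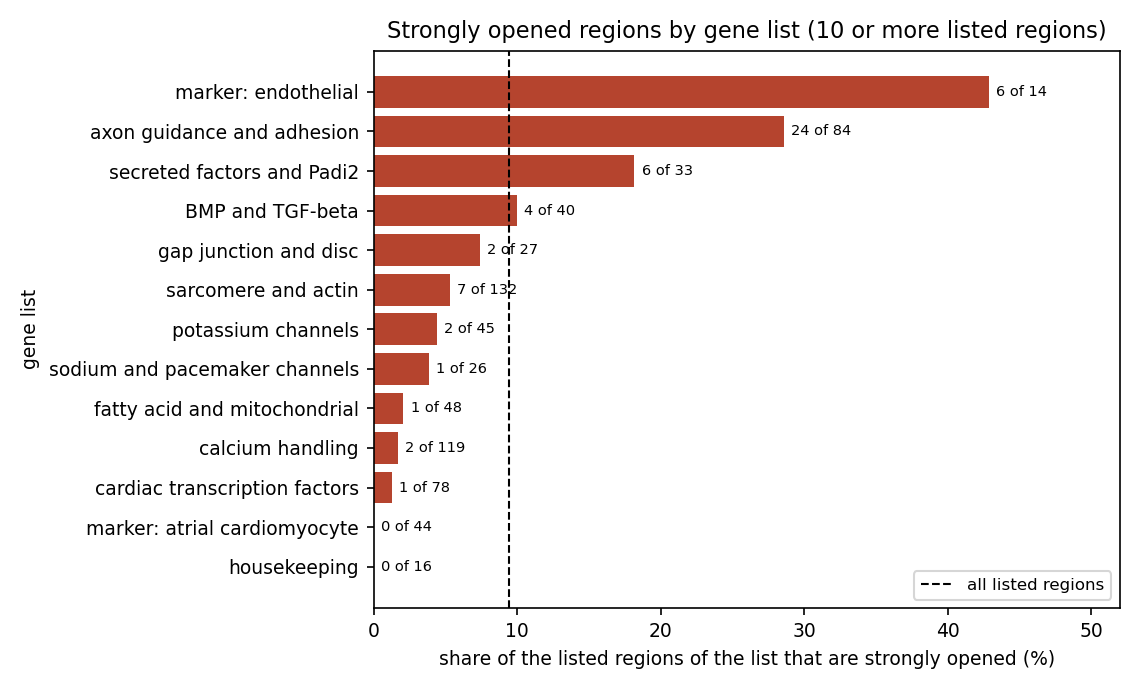
Share of the listed regions of each gene list that were strongly opened (x axis, %), for lists with 10 or more listed regions; labels give the counts, and the dashed line is the share over all listed regions, 9.44%. The guidance list lies well to the right of the line and the BMP and TGF-beta list just past it. The bar of secreted factors and Padi2 lies to the right through Lgals3 and Padi2. Calcium handling and cardiac transcription factors are under 2%, and the endothelial bar is Kdr alone.

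Markers of cardiomyocytes and of other cell types were read beside these counts. The 8 atrial cardiomyocyte markers had 44 listed regions, of which 32 were gained, 12 lost and 0 strongly opened, with a highest ratio of 2.74. Their summed scaled counts were 11121 to 12808 in Tbx5G125R animals and 5702 to 6066 in Control animals. The 7 endothelial markers had 14 listed regions at 3 genes, with sums of 1341 to 1412 in Tbx5G125R animals and 547 to 716 in Control animals. All 6 strongly opened ones were assigned to Kdr, the main VEGF receptor of endothelium, which had 9 listed regions. The 6 had ratios of 3.08 to 4.66. Those of 4.66, 4.13, 3.18 and 3.08 lay outside the gene, 31827, 54827, 2327 and 25827 bp away. Summed counts over the 9 regions were 1015 to 1072 in Tbx5G125R animals and 267 to 355 in Control animals. Of the 2 other endothelial genes listed, Pecam1 had a ratio of 1.82, under the median of the table, and the 4 regions of Npr3 were lost, and Cdh5, Tek, Tie1 and Vwf had no listed region. Fibroblast markers had 1 strongly opened region of 3, at Dpt (ratio 3.08), with sums of 478 to 543 in Tbx5G125R animals and 231 to 269 in Control animals, and 5 of the 7, Col1a1 and Pdgfra among them, had no listed region. Of the 8 skeletal muscle markers, Myh3, an embryonic myosin, alone had a listed region, with 83.8, 132, 149 and 139 in Tbx5G125R animals and 32.9, 42.1, 18.9 and 19.98 in Control animals (ratio 4.72). The smooth muscle list had 1 listed region, at Myh11, and the ventricular list 4, at Myh7, none strongly opened, and leukocyte markers and those of epicardium, nerve and fat had none. Because the table omits regions that did not differ, a marker with no listed region may still be open, and the part of other cell types in the counts at Kdr, Dpt and Myh3 was not tested.

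Other start windows lay in regions of middling ratio. At Cd82, a tetraspanin of the cell surface, the 2250 bp region over the window printed above had 88.9, 118, 113 and 120.4 scaled counts in Tbx5G125R animals and 20.1, 27.4, 16.1 and 32.0 in Control animals (ratio 5.18). At Atpaf2, an assembly factor of the mitochondrial ATP synthase, and Gid4, a ubiquitin ligase subunit, the shared region had 99.1, 97.6, 92.6 and 75.6 in Tbx5G125R animals and 21.5, 18.3, 25.7 and 21.97 in Control animals (ratio 4.11). No group overlapped the other at either. A strongly opened region at Neto2, with a ratio of 3.02, overlapped the hairpin of Mir8109, and 2 more lay within 5 kb of a miRNA hairpin, at 1928 bp from Mir6715 and 4103 bp from Mir1231. The starts of Gm5640 and Gm5936 on chromosome X carry nearly the same letters, so that reads there (ratios 3.10 and 3.07) could have been placed at either gene.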

How the data were processed

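ATAC-seq libraries of PCM1-sorted atrial nuclei came from 4 Tbx5G125R animals (4 libraries) and 4 Control animals (6 libraries), each animal a separate mouse. Tools named by the submitters' notes are BWA, bedtools and DESeq2, without versions, and the build is mm10. Nothing read here says whether reads were shifted for the transposase or duplicates removed. The authors deposited raw read counts per region and library, built from bins of 500 bp, for 10010 regions they had called different. In 4 columns the deposited values were estimated counts in form, because a count of 0 was written as 0.1 (26 values). Nor is it said whether a count covers the significant bin or the whole region. The authors also deposited, as signal values, the geometric mean per genotype, which the rule uses. Their own log2 fold changes and adjusted p-values fill 2 further columns and were not used.

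Repeat libraries (Control animals 1 and 3) were added together. Their chi-square per degree of freedom over regions was 1.62 and 1.67, against 2.01 to 4.29 between animals of a group. Table sums per animal ran from 630392 to 2776475, and whole-library depth is unknown. Scaled counts are counts divided by median-ratio factors within each genotype (geometric mean 1). Intervals on depth were not computed, since PCR reads are not independent molecules. edgeR 4.0.16 (R 4.3.3, Benjamini-Hochberg adjusted at 0.05 over all regions, no covariate) was fitted on the whole table. Its biological coefficient of variation was 11.5%. The fit was also run on simulated counts in which few regions changed, as many up as down. That setting differs from this table, so it does not test the calls made here. Alternatives used limma 3.58.1 (pseudocounts 1 and 0.1), DESeq2 1.42.0, other scaling, filters, thresholds and leaving out each animal.

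Genes are RefSeq protein-coding genes (GRCm38.p6): the gene a region overlaps, the shortest of several, else the nearest within 100 kb. Gene ends are either end, as the table has no strand. Motifs were searched on both strands of RefSeq start windows. No genome was used, so sequences of regions away from starts are not analysed here. Named regions were the 10 of highest ratio at or above the median Control level of the strongly opened regions, the 5 of highest level, up to 3 per gene list, genes with 3 or more, 12 at start windows, 3 on each side of the threshold, those of Bmp6, Padi2, Wdr3, Lgals3 and Sema3a, and, chosen after their values were seen, the highest ratios, Elmo2, the overlapping regions and those at miRNAs and on chromosome X. The regions, the 19 gene lists and the 11 motifs were chosen with earlier results of these data known.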

Additional observations from a re-analysis of the deposited data

Results flagged for a closer look

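Among 65 named regions, giving 130 groups of 4 animals, 4 groups had 1 animal far from the others, by the size of the gap to the nearest one against the range of the group. Chance alone sets apart about 1 group in 20. At the region of chromosome 14 with no gene nearby (ratio 7.07), Tbx5G125R animal 1 had 118 scaled counts and the 3 others 192 to 207. At Nat8f6, an acetyltransferase-like gene, the same animal had 57.2 and the others 98.5 to 102. At Kcnf1, a modulatory potassium channel subunit, Control animal 1 had 43.0 and the others 32.2 to 33.0. At Wdr3, Control animal 3 had 10.05 and the others 16.5 to 16.98. In each case all Tbx5G125R animals stayed above all Control animals. The cause was not tested.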

How the results depend on the processing

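The number of strongly opened regions followed the scale and the threshold. Dividing ratios by the table's median left 104, a threshold of 2.5 gave 1961 and one of 4 gave 344. Means over animals, arithmetic means, 1 added to each count and a Control minimum of 10 gave 773 to 977. Leaving out 1 animal gave 905 to 1101, of which 796 to 895 were shared with the 945, and 585 regions stayed at 3 or more throughout. All 945 stayed called higher under every other alternative except limma with a pseudocount of 0.1 (943), TMM (643) and median-ratio scaling (653). Over the table, 8846 regions were called higher, 806 under TMM and 856 under median-ratio scaling. Leaving out 1 animal gave 945 to 945 strongly opened regions and 8846 to 8846 of all. With the replicate number as a block, 945 and 8846 were called. Correlations of deviations were 0.18, 0.01, 0.07 and 0.03 between same-numbered animals, and -0.13 to 0.11 between animals of other numbers. Not every animal correlated best with its own number. These few correlations cannot show whether same-numbered animals shared a batch. Regions with no gene within reach numbered 362 at a limit of 10 kb and 35 at 500 kb, and those at gene ends 173 within 5 kb. Dividing by the table's median moved the ratio of 143 of 161 named regions by more than the spread between animals. The lists without genes added with results known, and the shares among gained regions only, were chosen after seeing the data. Low Control counts limit the ratios, most of all in Control animal 2.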
